A study of Saccharomyces cerevisiae with 12 samples.

Results

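The small nucleolar RNAs (snoRNAs) and the small nuclear RNAs of the spliceosome were followed in wt, *tup1*, *cyc8* and *tup1 cyc8* yeast. The RNAs were chosen by name and by depth. A row of the count tables was taken if its name was SNR followed by a number and an optional letter, and if it held 10 or more counts in all 12 libraries. Of 81 rows with such a name among 6400 named rows, 63 passed. They were 28 box H/ACA snoRNAs, 32 box C/D snoRNAs and 3 spliceosomal RNAs, namely snR19 (U1), snR14 (U4) and the long form of snR7 (U5), which the tables name with a hyphen (snR7-L). The lowest counts of members just inside the limit were 12 for snR48, 18 for snR36, 19 for snR62 and 20 for snR60. Just outside it stood snR6 (U6), with 8 to 23 counts, snR24, whose lowest count was 8, and snR78, whose lowest count was 9.

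Box C/D snoRNAs guide 2'-O-methylation and box H/ACA snoRNAs guide pseudouridylation, mostly of ribosomal RNA, by pairing with the target and placing it in the active site of a small ribonucleoprotein. A few snoRNAs, such as U3, U14 and snR30, are needed for the cleavage of the ribosomal RNA precursor. Most yeast snoRNAs are transcribed by RNA polymerase II from genes of their own, some in clusters read as 1 transcript and cut apart by the RNase III enzyme Rnt1p, and a few are released from introns of host genes. In the spliceosome, U1 pairs with the 5' splice site, U2 with the branch site, and U4, U5 and U6 join as a tri-snRNP. Tup1-Cyc8 is a general co-repressor that has no DNA-binding activity of its own and is brought to promoters by sequence-specific factors.

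The 4 strains were BY4741 wt and BY4741 carrying *tup1*::KAN, *cyc8*::KAN, or both *tup1*::KAN and *cyc8*::URA3. All were collected in log phase in YPD with 2% glucose at an OD600 of 0.6 to 0.8, with 3 libraries labelled as biological replicates per strain. RNA was extracted with hot phenol, cleaned on a silica column, depleted of ribosomal RNA and sequenced with strand information. Libraries held 12682293 to 17910416 counts. *TUP1* stood at 455 to 480 CPM in wt and at 16.9 to 20.8 in *tup1*, and *CYC8* at 181 to 198 in wt and 7.31 to 9.33 in *cyc8*. In the libraries labelled *tup1 cyc8*, 79.3 to 88.3 CPM of *CYC8* remained (log2 fold change -1.15 against wt), a smaller loss than in *cyc8*. *URA3*, the marker of the *CYC8* deletion in that strain, stood at 48.2, 46.0 and 39.2 CPM there and at 0 to 0.157 in the other strains. The strain is named here by its label. CPM are counts scaled to library size with a factor from the trimmed mean of M values (TMM). The 3 mutants were each compared with the same wt libraries, so the comparisons with wt are not independent of each other. Libraries stood apart at some members. In *tup1* replicate 3, 7 of 63 members (11.1%) were more than 2-fold above both other *tup1* libraries, against 0.409% of 5866 genes with a mean CPM of 1 or more. In wt replicate 3, 6 members (9.52%) were more than 2-fold below both other wt libraries, against 1.28% of those genes. Over all of those genes *cyc8* replicate 1 stood apart most, with 2.76% more than 2-fold below and 0.921% above both other *cyc8* libraries. Of the members 2 (3.17%) were below and 0 above in that library.

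The members together took a larger share of all counts in *cyc8* and *tup1 cyc8*. The share was 3.51%, 3.38% and 3.43% in wt and 3.48%, 4.13% and 3.74% in *tup1*. It was 4.72%, 6.20% and 5.54% in *cyc8* and 4.96%, 5.57% and 4.85% in *tup1 cyc8*. Every *cyc8* and *tup1 cyc8* library lay above every wt and *tup1* library, while *tup1* and wt overlapped. The means were 3.44% ± 0.0662 in wt and 3.78% ± 0.327, 5.49% ± 0.742 and 5.12% ± 0.386 in *tup1*, *cyc8* and *tup1 cyc8* (SD, n = 3). No test was made of these sums, since the members were chosen with results of these data known. Protein-coding genes took 92.1% ± 0.115 of counts in wt and 91.2% ± 0.197, 88.6% ± 1.52 and 89.4% ± 1.11 in *tup1*, *cyc8* and *tup1 cyc8*.

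**Figure D1:**
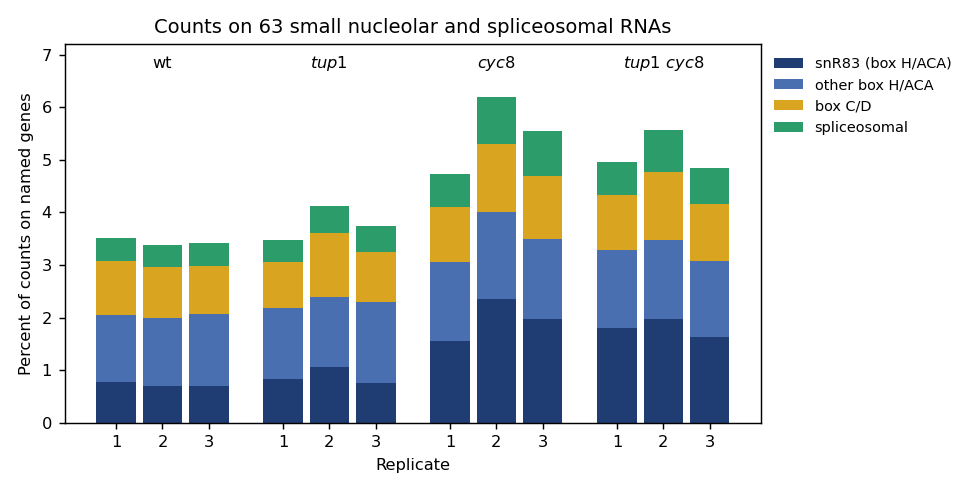
Percent of the counts on named genes held by the 63 small RNAs in each library, by replicate within a strain. Bars are split into snR83 (box H/ACA), other box H/ACA, box C/D and spliceosomal members. The H/ACA segments, snR83 included, together differ most between strains, from a mean of 2.04% in wt to 3.52% in *cyc8*.

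Most of that share belonged to a handful of long RNAs. The box H/ACA class held 2.04% ± 0.0353 of counts in wt and 2.28% ± 0.103, 3.52% ± 0.478 and 3.28% ± 0.191 in *tup1*, *cyc8* and *tup1 cyc8*. The box C/D class moved less, from 0.969% ± 0.0535 in wt to 1.02% ± 0.183, 1.18% ± 0.127 and 1.14% ± 0.129 in *tup1*, *cyc8* and *tup1 cyc8*. The spliceosomal members, nearly all of it U1, held 0.435% ± 0.00746, 0.477% ± 0.0465, 0.790% ± 0.146 and 0.705% ± 0.0959 in the same order. The 5 members with most counts (snR83, snR17a, snR19, snR30 and snR86) carried 82.9% ± 0.700 of all member counts in wt and 87.2% ± 0.429 in *cyc8*. snR83 alone carried 20.9% ± 0.794 of them in wt and 23.1% ± 2.78, 35.5% ± 2.48 and 35.1% ± 1.30 in *tup1*, *cyc8* and *tup1 cyc8*. With snR83 left out, the share of all counts was 2.72% in wt and 2.90%, 3.53% and 3.33% in *tup1*, *cyc8* and *tup1 cyc8*.

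Each member was then tested against wt in a fit over all genes (edgeR's quasi-likelihood test, limits of a log2 fold change of 1 in either direction and a Benjamini-Hochberg adjusted p of 0.01). In *tup1*, 0 of 63 members passed both limits in either direction, where 7.27% of all genes tested rose and 1.43% fell. By the adjusted p alone 0 members passed either, against 10.5% of all genes higher and 3.73% lower. At an unadjusted p under 0.05, 8 members stood higher and 1 lower in *tup1*, where 19.7% of all genes stood higher and 17.6% lower, and DESeq2 also called 0 members. Without wt replicate 3, snR47 and snR77 were called lower in *tup1*. In *cyc8*, 7 members (11.1%) rose, close to the 12.5% of all genes that rose, and 0 fell, where 1.91% of genes fell. At an unadjusted p under 0.05, 43 members were higher and 3 lower in *cyc8*, against 27.5% and 24.5% of all genes. DESeq2 called 13 higher and 0 lower, against 13.6% and 2.10% of genes. In *tup1 cyc8*, 5 members (7.94%) rose against 13.9% of all genes, and 0 fell against 1.88%. Here 26 members were higher and 2 lower at an unadjusted p under 0.05, against 29.8% and 28.6% of all genes, and DESeq2 called 6 higher and 0 lower, against 14.5% and 1.92%. As a share of the members, calls past both limits in the main fit were thus no more frequent than over all genes. In *cyc8* this did not hold for DESeq2, with 13 of 63 members higher against 13.6% of genes. Nor did it hold there at the unadjusted p, with 43 of 63 higher against 27.5%.

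The number of calls depended on single libraries. In *cyc8* it was 3 without wt replicate 1, 4 without *cyc8* replicate 3 and 18 without *cyc8* replicate 1. snR83 and snR74 were called whichever library was left out. snR19 lost the call without wt replicate 1 or 2, snR3 without those or *cyc8* replicate 2, snR189 and snR67 without those or *cyc8* replicate 3, and snR85 without wt replicate 2 or 3 or *cyc8* replicate 2 or 3. In *tup1 cyc8* it was 3 without wt replicate 1, wt replicate 2 or *tup1 cyc8* replicate 3, and those left were snR83, snR19 and snR3 each time. The same count of 3 resulted from a fit of all 12 libraries. With scaling by library size alone, snR83, snR74 and snR67 stayed called in *cyc8* and snR83 alone in *tup1 cyc8*.

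By the adjusted p alone, without the limit on fold, 15 members (23.8%) stood higher in *cyc8*, against 16.3% of all genes, and only snR17b lower, against 5.66%. In *tup1 cyc8* they were 14 (22.2%) against 21.0%, again with snR17b the 1 member lower, against 13.6%. Against wt the median log2 fold change of the members was 0.14, 0.68 and 0.45 in *tup1*, *cyc8* and *tup1 cyc8*, where the medians of all genes lay at -0.03 in each. Of 63 members, 40, 58 and 51 had a positive value in these comparisons. All 3 *cyc8* libraries lay above all 3 wt libraries for 42 members (66.7%), against 28.4% of all genes, and for 26 (41.3%) in *tup1 cyc8*, against 30.4%. In *tup1* 5 members (7.94%) did so, against 22.0% of genes. These values depend on the scaling. Scaling by library size alone put the all-gene medians at -0.16, -0.38 and -0.50 and the members' medians at 0.02, 0.33 and -0.02. Calls were then 3 higher and 1 lower in *cyc8* and 1 higher and 2 lower in *tup1 cyc8*, and in *tup1 cyc8* only 28 members had a positive value.

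**Figure D2:**
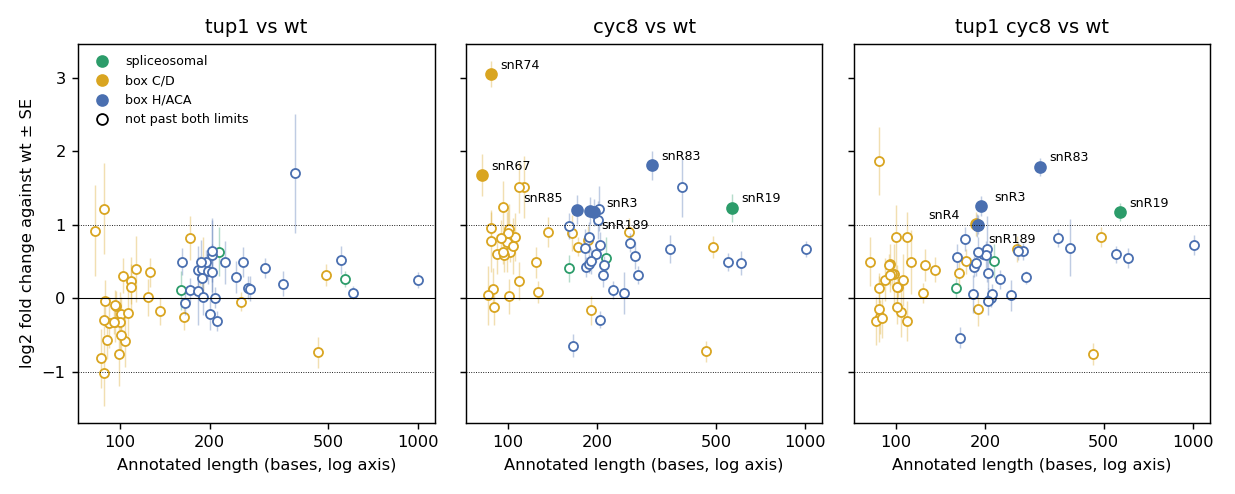
log2 fold change of each of the 63 members against wt (points, ± SE) over its annotated length in bases on a log axis, with dotted lines at the fold limits of 1 and -1, for *tup1*, *cyc8* and *tup1 cyc8*. No member passed both limits in *tup1*, 7 did in *cyc8* and 5 in *tup1 cyc8*, all of them higher.

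The box H/ACA class held 4 of the 7 RNAs that rose in *cyc8* (snR83, snR85, snR189 and snR3) and 3 of the 5 that rose in *tup1 cyc8* (snR83, snR3 and snR189). These RNAs are shown because they are the members of the class past both limits, snR83 by its last 150 bases (chrXIII:626505-626654, plus strand) and the others whole: snR189 (chrIII:178610-178798, minus), snR3 (chrX:663749-663942, plus) and snR85 (chrXIII:67768-67938, minus). Sequences are from RefSeq, build R64, and capitals mark ACA within the last 6 bases, the letters from which the class takes part of its name. The letters occurred there in 16 of 28 H/ACA members and in 1.45% of 6475 genes read the same way on their own strand. They were not in that window of snR85 or snR3.
snR83: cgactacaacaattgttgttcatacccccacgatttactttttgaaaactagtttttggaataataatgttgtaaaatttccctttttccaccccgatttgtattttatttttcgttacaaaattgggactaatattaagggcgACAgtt
snR189: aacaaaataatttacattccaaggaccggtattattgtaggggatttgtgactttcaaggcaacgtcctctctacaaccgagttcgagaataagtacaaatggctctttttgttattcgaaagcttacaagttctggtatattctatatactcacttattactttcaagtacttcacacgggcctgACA
snR3: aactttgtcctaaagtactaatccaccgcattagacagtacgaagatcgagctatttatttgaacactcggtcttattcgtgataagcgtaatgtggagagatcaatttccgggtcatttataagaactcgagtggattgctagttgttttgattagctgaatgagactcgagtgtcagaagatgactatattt
snR85: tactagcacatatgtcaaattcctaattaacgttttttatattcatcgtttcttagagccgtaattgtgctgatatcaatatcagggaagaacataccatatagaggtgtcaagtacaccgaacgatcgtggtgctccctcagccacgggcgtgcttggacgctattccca

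snR83, which guides pseudouridylation of the small subunit ribosomal RNA, was the most abundant member per length in all 4 strains, with 19941 CPM per kb in wt and 69841 in *cyc8*. Its level was 6401, 5968 and 5938 CPM in wt and 7444, 9827 and 7305 in *tup1*. It was 15617, 26127 and 22370 in *cyc8* and 20969, 22216 and 19691 in *tup1 cyc8*. All mutant libraries stood above all wt libraries, and the *cyc8* and *tup1 cyc8* libraries did not overlap with *tup1*. The log2 fold change against wt was 1.81 ± 0.20 (adjusted p = 0.000352) in *cyc8* and 1.79 ± 0.12 (adjusted p = 1.02e-05) in *tup1 cyc8*. In *tup1* it was 0.41 ± 0.14 (adjusted p = 0.0624). Both calls held in all 14 alternative fits, and the gene next to it, *SSO2*, a syntaxin gene 266 bases away on the opposite strand, stood at -0.26 in *cyc8* (adjusted p = 0.186).

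snR189, which guides pseudouridylation in both ribosomal subunits, was at 89.0, 98.5 and 116 CPM in wt and at 106, 136 and 161 in *tup1*. It reached 176, 270 and 245 CPM in *cyc8* and 212, 180 and 210 in *tup1 cyc8*, so that both strains lay above all wt libraries. Its log2 fold change was 1.19 ± 0.18 (adjusted p = 0.00200) in *cyc8* and 1.00 ± 0.13 (adjusted p = 0.000365) in *tup1 cyc8*, and 0.39 ± 0.16 in *tup1* (adjusted p = 0.120). Its neighbour on the same strand, *RPS14A*, a ribosomal protein gene, was at 0.16 in *cyc8* (adjusted p = 0.325).

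snR3 guides pseudouridylation of the large subunit ribosomal RNA. It was at 100, 81.1 and 112 CPM in wt, 115, 155 and 150 in *tup1*, 197, 272 and 189 in *cyc8*, and 239, 236 and 219 in *tup1 cyc8*. None of the mutant libraries overlapped with wt. The log2 fold change was 1.17 ± 0.19 in *cyc8* (adjusted p = 0.00228), and 1.25 ± 0.13 (adjusted p = 0.000122) and 0.50 ± 0.16 (adjusted p = 0.0506) in *tup1 cyc8* and *tup1*. *YJR128W*, an open reading frame 468 bases upstream on the same strand, stood at 1.14 (adjusted p = 0.0159) in *cyc8* and 0.96 (adjusted p = 0.0130) in *tup1 cyc8*, neither past the limits, and its part in the value of snR3 was not tested.

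snR85, a low-level H/ACA RNA with a predicted target in the small subunit, had 8.48, 7.32 and 6.30 CPM in wt and 7.35, 9.26 and 7.49 in *tup1*. It had 13.0, 20.0 and 18.1 CPM in *cyc8* and 12.2, 14.9 and 10.98 in *tup1 cyc8*, all above wt. It differed from wt by a log2 fold change of 1.20 ± 0.20 (adjusted p = 0.00251) in *cyc8* and 0.80 ± 0.16 (adjusted p = 0.00453) in *tup1 cyc8*, the latter under the fold limit. The divergent neighbour *CAC2*, a chromatin assembly factor gene on the opposite strand, stood at 0.78 in *cyc8* (adjusted p = 0.0204).

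**Figure D3:**
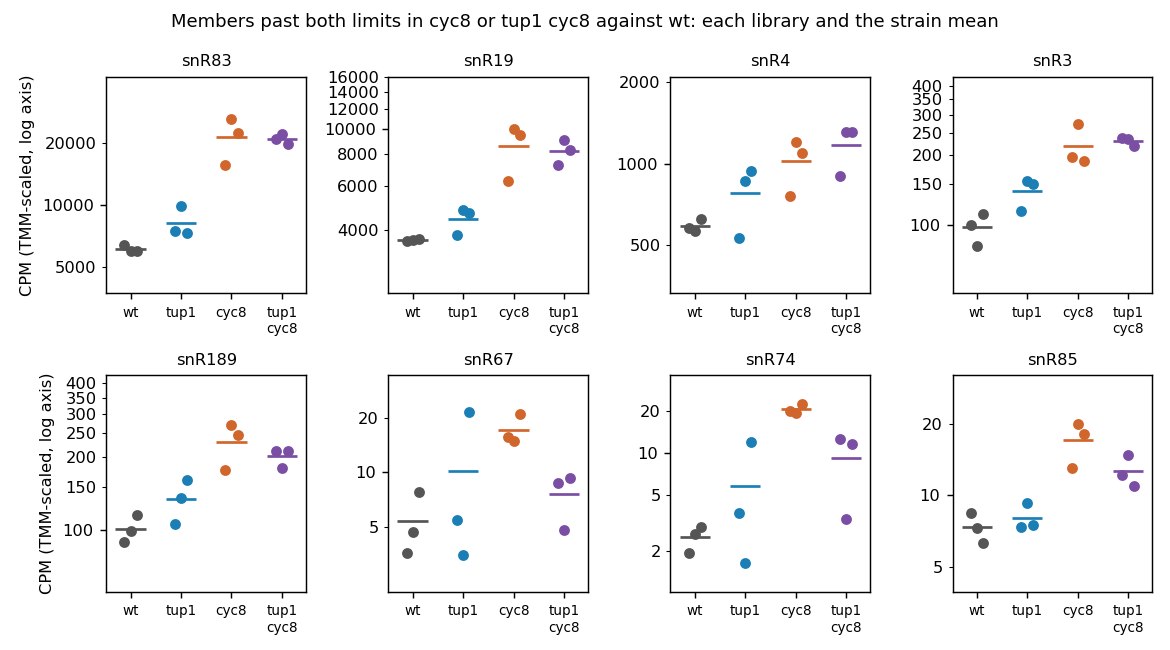
TMM-scaled CPM on a log axis of each member past both limits in *cyc8* or *tup1 cyc8* against wt, with each library as a point and the strain mean as a line. snR83 rises from 5938 to 6401 CPM in wt to 15617 to 26127 in *cyc8*, while snR74 spreads from 1.62 to 12.1 CPM within *tup1*.

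The remaining abundant H/ACA members moved by less than the fold limit. snR30, the essential H/ACA RNA needed for release of 18S rRNA, was at 4513, 4703 and 4833 CPM in wt, 5210, 7633 and 6755 in *cyc8* and 5765, 7153 and 7472 in *tup1 cyc8*. Its log2 fold change was 0.48 ± 0.16 (adjusted p = 0.0451) in *cyc8* and 0.55 ± 0.14 (adjusted p = 0.010001) in *tup1 cyc8*. snR86, the longest member at 1004 bases, stood at 4059, 4435 and 4158 CPM in wt, 6712, 6916 and 6463 in *cyc8* and 8160, 6124 and 6462 in *tup1 cyc8*. All of these libraries lay above wt, with a log2 fold change of 0.67 ± 0.11 (adjusted p = 0.00319) and 0.72 ± 0.14 (adjusted p = 0.00335). Counts of snR83 relative to those of snR86 in the same library, a ratio that needs no scaling between libraries, were 1.45 ± 0.117 in wt and 1.65 ± 0.491, 3.19 ± 0.763 and 3.08 ± 0.530 in *tup1*, *cyc8* and *tup1 cyc8*. The lowest *cyc8* ratio, 2.33, lay above the highest wt ratio, 1.58, while *tup1* replicate 2 reached 2.22. snR83 had already been called in these libraries, and the ratio was given no test.

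snR10, which assists the early cleavages of the ribosomal RNA precursor, had 17.1, 18.2 and 10.8 CPM in wt and 10.3, 16.9 and 21.3 in *cyc8*, and the groups overlapped (log2 fold change 0.07 ± 0.29, adjusted p = 0.853). It shares bases with the open reading frame *YGL088W*, which rose in *cyc8* (log2 fold change 1.16 ± 0.14, adjusted p = 0.000623). The study describes its counts as unique to a gene. Reads from the shared bases may thus be missing from both values, and their handling is not described further. snR49, which guides pseudouridylation in both ribosomal RNAs, was the H/ACA member with the lowest value in *cyc8*. It had 15.4, 19.6 and 14.8 CPM in wt, 9.56, 10.02 and 12.2 in *cyc8*, and 11.6, 10.2 and 12.3 in *tup1 cyc8*. Both sets lay below all wt libraries, yet neither log2 fold change passed a limit (-0.65 ± 0.16, adjusted p = 0.0164, and -0.54 ± 0.14, adjusted p = 0.0143).

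The box C/D class held the other snoRNAs that rose, snR74 and snR67 in *cyc8* and snR4 in *tup1 cyc8*. They are shown with snR73, which follows snR74 in the same cluster and did not pass the limits: snR74 (chrXIII:298138-298225, plus), snR73 (chrXIII:298307-298412, plus), snR67 (chrV:61352-61433, plus) and snR4 (chrV:424698-424883, plus). Capitals mark TGATGA, the letters of box C, where they stood in the first 25 bases, and CTGA, the letters of box D, in the last 25 bases. Of 32 C/D members, 22 held the first and 30 the second, against 1.67% and 11.1% of 6475 genes. snR74 and snR4 held only the box D letters.
snR74: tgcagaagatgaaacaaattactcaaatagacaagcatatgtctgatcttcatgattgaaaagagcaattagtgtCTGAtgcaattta
snR73: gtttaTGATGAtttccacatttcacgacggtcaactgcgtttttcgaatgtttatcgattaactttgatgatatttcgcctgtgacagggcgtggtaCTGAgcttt
snR67: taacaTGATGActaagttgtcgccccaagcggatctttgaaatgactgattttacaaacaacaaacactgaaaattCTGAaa
snR4: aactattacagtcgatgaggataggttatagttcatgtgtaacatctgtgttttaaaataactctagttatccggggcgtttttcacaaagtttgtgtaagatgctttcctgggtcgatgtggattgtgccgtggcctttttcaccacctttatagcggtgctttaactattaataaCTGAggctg

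snR74 guides 2'-O-methylation of the small subunit ribosomal RNA and showed the largest log2 fold change of any member. It was scarce in wt, with 1.91, 2.63 and 2.93 CPM, and had 20.0, 19.5 and 22.5 CPM in *cyc8*. In *tup1* it had 3.71, 1.62 and 12.1 CPM and in *tup1 cyc8* 12.6, 3.35 and 11.6. The *cyc8* libraries lay close together and far above wt, while 1 library stood apart in each of the other mutants, replicate 3 in *tup1* and replicate 2 in *tup1 cyc8*. The log2 fold change was 3.05 ± 0.18 in *cyc8* (adjusted p = 1.33e-05), a call that held in all 14 alternative fits. It was 1.87 ± 0.46 in *tup1 cyc8* (adjusted p = 0.0101) and 1.22 ± 0.62 in *tup1* (adjusted p = 0.191).

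snR67 guides methylation of the large subunit ribosomal RNA. It had 3.59, 4.69 and 7.82 CPM in wt, 15.7, 14.9 and 21.1 in *cyc8*, and 8.78, 4.82 and 9.26 in *tup1 cyc8*. In *tup1* it had 5.46, 3.49 and 21.5 CPM, so that replicate 3 reached the *cyc8* level and the other *tup1* libraries stayed within the wt range or just below it. Against wt its log2 fold change was 1.68 ± 0.29 in *cyc8* (adjusted p = 0.00312), and 0.91 ± 0.62 in *tup1* (adjusted p = 0.313), which became -0.27 without *tup1* replicate 3.

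snR4 has box C/D form, yet guides acetylation of a cytosine in 18S rRNA by the acetyltransferase Kre33p. It was at 578, 561 and 623 CPM in wt, 529, 862 and 936 in *tup1*, 757, 1206 and 1099 in *cyc8*, and 902, 1307 and 1304 in *tup1 cyc8*. It rose in *tup1 cyc8* (1.01 ± 0.16, adjusted p = 0.00124), just past the fold limit, and the call was kept in 7 of 14 alternative fits. In *cyc8* the value was 0.80 ± 0.18 (adjusted p = 0.0115), with all 3 libraries above wt. snR63, a methylation guide for the large subunit, was at 807, 848 and 1049 CPM in wt and 1293, 2015 and 1718 in *cyc8* (0.90 ± 0.19, adjusted p = 0.00867).

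U3, the box C/D RNA needed for early cleavage of the ribosomal RNA precursor, comes from a pair of genes whose levels went apart. snR17a and snR17b share their first 20 bases and have 56.7% and 59.96% of their bases in stretches of 12 or more found in the other. Their first 200 bases are shown (chrXV:780107-780306, plus, and chrXVI:281318-281517, minus), with those stretches in capitals. The lower-case stretch near the start is where the genes differ, and both carry an intron there. Because of the shared stretches, reads could be split between the genes, and 16.3% of the 31-base words of snR17a and 17.4% of those of snR17b occur elsewhere in the genome. snR17a also shares bases with the dubious open reading frame *IRC13*.
snR17a: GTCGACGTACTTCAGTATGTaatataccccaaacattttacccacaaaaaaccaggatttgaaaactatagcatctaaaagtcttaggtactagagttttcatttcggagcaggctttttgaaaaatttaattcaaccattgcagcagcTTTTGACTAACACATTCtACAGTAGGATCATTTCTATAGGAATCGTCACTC
snR17b: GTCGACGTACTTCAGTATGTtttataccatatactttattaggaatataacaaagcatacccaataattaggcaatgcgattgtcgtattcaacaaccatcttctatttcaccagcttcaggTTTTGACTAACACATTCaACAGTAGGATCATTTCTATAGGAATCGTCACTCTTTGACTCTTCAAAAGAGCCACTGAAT

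snR17a was at 5846, 5547 and 5079 CPM in wt, 5850, 8528 and 6404 in *tup1*, 7351, 9749 and 9537 in *cyc8*, and 8949, 11013 and 9208 in *tup1 cyc8*. snR17b went the other way, from 864, 842 and 672 CPM in wt to 339, 606 and 497 in *tup1*, 464, 516 and 455 in *cyc8*, and 391, 519 and 475 in *tup1 cyc8*. For snR17b no mutant library reached the lowest wt library. The log2 fold change of snR17a was 0.69 ± 0.15 (adjusted p = 0.00927) in *cyc8* and 0.84 ± 0.13 (adjusted p = 0.00130) in *tup1 cyc8*. That of snR17b was -0.73 ± 0.14 (adjusted p = 0.00518) and -0.77 ± 0.15 (adjusted p = 0.00351), and in *tup1* -0.74 ± 0.21 (adjusted p = 0.0337). None of these passed the limit on fold.

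Within a library, where no scaling is involved, the counts of snR17a were 6.97 ± 0.515 times those of snR17b in wt, between 6.59 and 7.56. The ratio was 14.7 ± 2.26, 18.6 ± 2.57 and 21.2 ± 1.75 in *tup1*, *cyc8* and *tup1 cyc8*, the lowest values being 12.9, 15.8 and 19.4. No mutant library overlapped with wt, in *tup1* included, where neither gene passed the test. snR17b made up 12.6% ± 0.788 of the summed CPM of the pair in wt and 6.44% ± 0.880, 5.17% ± 0.703 and 4.53% ± 0.362 in *tup1*, *cyc8* and *tup1 cyc8*. The sum itself was 6283 ± 488 CPM in wt and 7408 ± 1536, 9358 ± 1343 and 10185 ± 1179 in *tup1*, *cyc8* and *tup1 cyc8*. The ratio was chosen after its values were seen and was given no test.

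**Figure D4:**
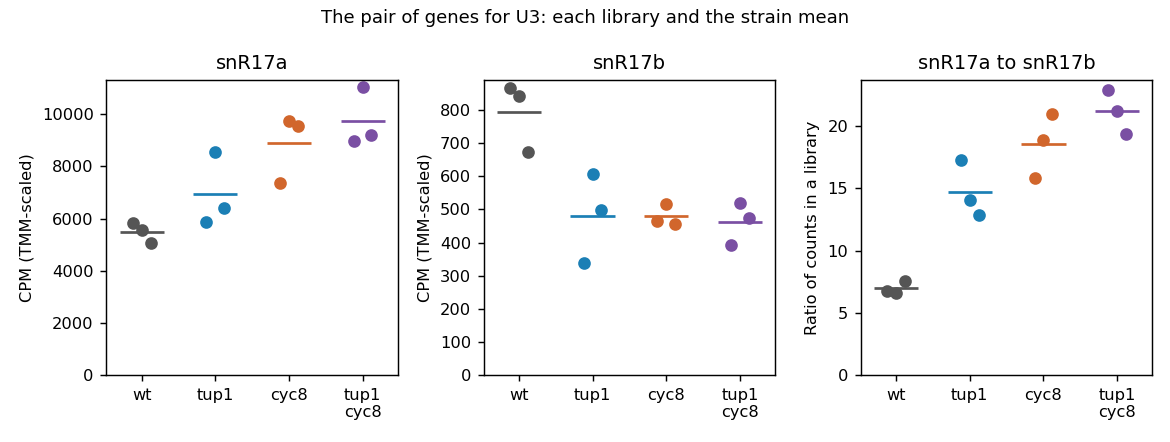
TMM-scaled CPM of snR17a and of snR17b and the ratio of their counts, for each library (points) and each strain mean (lines). The ratio lies between 6.59 and 7.56 in wt and at 12.9 or more in every mutant library.

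U14 (snR128), which pairs with 18S rRNA and is essential, shares a transcript with snR190. It was at 38.1, 31.3 and 35.5 CPM in wt, 32.3, 44.6 and 34.3 in *cyc8* and 31.7, 61.7 and 48.5 in *tup1 cyc8*, and the groups overlapped (0.08 ± 0.15, adjusted p = 0.675, and 0.45 ± 0.22, adjusted p = 0.119). snR190 spread widely in *tup1*, at 41.2, 107 and 187 CPM, against 77.3, 96.2 and 76.2 in wt. Its counts relative to those of snR128 were 2.42 ± 0.568 in wt and 2.33 ± 1.19 in *tup1*, so the 2 RNAs of 1 transcript did not keep a fixed ratio between libraries.

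The cluster on chromosome XIII carries snR78, snR77, snR76, snR75, snR74, snR73 and snR72 in that order, all methylation guides. snR75 and snR72 were too low to test, and snR78 fell outside the chosen set through 1 library with 9 counts. Of the members in the cluster, snR74 rose in *cyc8*. snR76 had 65.7, 59.5 and 26.1 CPM in wt and 106, 170 and 154 in *cyc8* (1.51 ± 0.34, adjusted p = 0.0113), with no overlap. snR73, next to snR74, had 9.10, 11.9 and 5.05 CPM in wt and 10.8, 16.3 and 19.3 in *cyc8* (0.83 ± 0.33, adjusted p = 0.0760), and these overlapped. snR77 had 6.85, 8.55 and 2.06 CPM in wt, 3.15, 3.01 and 2.60 in *tup1* and 9.16, 9.87 and 10.9 in *cyc8* (0.78 ± 0.42, adjusted p = 0.170). The counts of snR74 relative to those of snR73 went from 0.337 ± 0.211 in wt to 1.41 ± 0.393 in *cyc8*, again a ratio looked at after its values were seen.

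**Figure D5:**
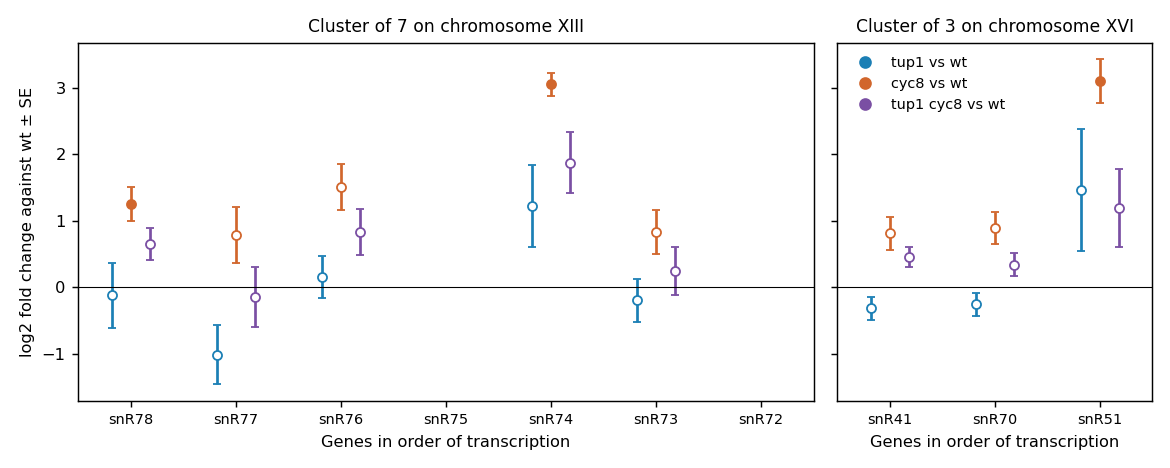
log2 fold change against wt (points, ± SE) of the genes of the chromosome XIII and chromosome XVI clusters, in order of transcription, for the 3 mutants. In *cyc8* all tested genes lie above 0, from 0.78 for snR77 to 3.10 for snR51, which is not among the 63 members.

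The cluster on chromosome XVI carries snR41, snR70 and snR51. snR41 had 49.9, 50.3 and 36.3 CPM in wt, 37.4, 42.8 and 30.7 in *tup1* and 52.4, 101 and 86.5 in *cyc8* (0.81 ± 0.25, adjusted p = 0.0339). snR70, whose counts were a near-constant part of those of snR41, had 23.7, 22.2 and 15.1 CPM in wt and 26.4, 47.1 and 39.5 in *cyc8* (0.89 ± 0.25, adjusted p = 0.0246). The counts of snR41 were 2.26 ± 0.150 times those of snR70 in wt and 2.14 ± 0.172, 2.10 ± 0.110 and 2.43 ± 0.196 in *tup1*, *cyc8* and *tup1 cyc8*. snR51, the last gene of the cluster, held 13, 18 and 39 counts in wt, 17, 8 and 163 in *tup1*, 177, 137 and 176 in *cyc8* and 68, 17 and 26 in *tup1 cyc8*. It rose in *cyc8* (log2 fold change 3.10, adjusted p = 0.000298), and its absence from the chosen set rests on the 8 counts of *tup1* replicate 2. snR78 likewise rose in *cyc8* (1.25, adjusted p = 0.00702). A limit applied in every library removes RNAs that are near 0 in any strain, so the counts of calls above are those of RNAs seen everywhere.

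Members that lie in introns can be set beside their host transcripts. snR44 in *RPS22B*, a gene for a small subunit ribosomal protein, had 54.4, 58.0 and 45.3 CPM in wt and 74.8, 71.7 and 69.3 in *cyc8* (0.45 ± 0.12, adjusted p = 0.0217), and *RPS22B* was at 0.81 ± 0.13 (adjusted p = 0.00267). In *tup1 cyc8* the host was at 0.72 ± 0.10 (adjusted p = 0.000655) and snR44 at 0.06 ± 0.13 (adjusted p = 0.739). snR18 in *EFB1*, which encodes a translation elongation factor, had 6.07, 6.20 and 6.90 CPM in wt and 10.8, 9.71 and 9.12 in *cyc8* (0.63 ± 0.14, adjusted p = 0.00986), where *EFB1* was at -0.29 ± 0.19 (adjusted p = 0.246). snR191 in *NOG2*, a gene for a GTPase of large subunit assembly, was at 0.28 ± 0.09 in *tup1 cyc8* (adjusted p = 0.0304) and its host at -0.87 ± 0.17 (adjusted p = 0.00311). snR39 in *RPL7A*, a large subunit protein gene, was at 0.13 ± 0.28 in *cyc8* (adjusted p = 0.731). The host *RPL7A* was at -0.26 ± 0.13 (adjusted p = 0.132). Whether host and snoRNA differed beyond their error was not tested.

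U1 was the spliceosomal RNA that rose. snR19 was at 3621, 3678 and 3714 CPM in wt, 3843, 4816 and 4702 in *tup1*, 6268, 10021 and 9501 in *cyc8*, and 7208, 9108 and 8316 in *tup1 cyc8*. The wt libraries lay within a narrow range below every mutant library. The log2 fold change was 1.23 ± 0.19 in *cyc8* (adjusted p = 0.00193), 1.17 ± 0.13 in *tup1 cyc8* (adjusted p = 0.000161) and 0.26 ± 0.11 in *tup1* (adjusted p = 0.132). In *cyc8* the fit was past the limits in 11 of 14 alternatives and lost the call without wt replicate 1 or 2 and with scaling by library size alone, with adjusted p from 1.33e-08 to 0.0135 over all of them. The first 100 bases of snR19 (chrXIV:230573-230672, minus) are shown because they hold ACTTAC, in capitals, the letters that pair with the 5' splice site.
snR19: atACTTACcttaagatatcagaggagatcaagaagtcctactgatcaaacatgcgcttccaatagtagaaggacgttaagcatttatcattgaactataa

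The other spliceosomal members had low counts. snR14 (U4) had 9.77, 11.5 and 9.24 CPM in wt, 7.14, 9.68 and 16.3 in *tup1*, 10.4, 14.6 and 15.6 in *cyc8* and 10.1, 11.4 and 11.8 in *tup1 cyc8*, and all groups overlapped with wt. snR7-L (U5) had 2.92, 3.58 and 2.77 CPM in wt and 2.88, 5.87 and 4.95 in *cyc8* (0.55 ± 0.28, adjusted p = 0.152). The short form of U5 lies within the long form, which is 35 bases longer, and was listed at 0 in all 12 libraries. The forms cannot be told apart by these counts. The study describes its counts as unique to a gene, so reads from the shared bases may be missing from them. The counts of snR7-L thus need not reflect the level of U5. U6 fell below the limit in depth, at 9 to 17 counts in wt and 12 to 17 in *cyc8*. U2 (*LSR1*), whose name does not follow the rule, took 1.35% ± 0.0223 of counts in wt and 1.91% ± 0.232 in *cyc8*, and stayed under the limit on fold with 0.49 (adjusted p = 0.00747), 0.86 (adjusted p = 0.00405) and 0.90 (adjusted p = 0.000482) in *tup1*, *cyc8* and *tup1 cyc8*.

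The mutants were compared directly in a fit of all 12 libraries. Against *tup1*, 11 members (17.5%) stood higher in *cyc8* past both limits, against 4.65% of all genes, and 0 lower. At an unadjusted p under 0.05, 32 were higher and 2 lower, against 22.4% and 20.4% of all genes, and DESeq2 called 13 higher and 0 lower, against 5.41% and 1.57%. The 11 were snR83 and snR85, snR81, another H/ACA RNA that also modifies U2, and 8 box C/D methylation guides, snR39B, snR41, snR57, snR64, snR68, snR70, snR76 and snR77. All of the latter but snR76 had a negative value in *tup1* against wt, none past the test, and this comparison uses the same *tup1* libraries. snR57 had 9.94, 8.30 and 10.1 CPM in *tup1* and 18.4, 22.3 and 26.5 in *cyc8* (1.24 ± 0.19, adjusted p = 0.000646). snR39B had 18.6, 21.1 and 17.6 CPM in *tup1* and 35.5, 64.8 and 66.0 in *cyc8* (1.54 ± 0.29, adjusted p = 0.00207). In both RNAs no *cyc8* library overlapped with *tup1*.

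snR77 had the largest value of the 11 (1.77 ± 0.38, adjusted p = 0.00459), and snR83 (1.38 ± 0.19, adjusted p = 0.000238) and snR57 were called in all 19 alternative fits. The count was 6 without *tup1* replicate 1, 7 without *tup1* replicate 3, 3 without *cyc8* replicate 2 and 6 without *cyc8* replicate 3. The calls left without *cyc8* replicate 2 were snR39B, snR57 and snR83. Under scaling by library size alone 5 were called.

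Between *tup1 cyc8* and *cyc8*, 0 members passed both limits in either direction, where 2.19% of all genes stood higher and 0.183% lower in *tup1 cyc8*. At an unadjusted p under 0.05, 0 members were higher and 15 lower, where 14.7% of all genes were higher and 12.6% lower, and DESeq2 called 0 members. The median of the members was -0.27, of the C/D members -0.41 and of the H/ACA members -0.02, where that of all genes was 0.00. Without *cyc8* replicate 1, snR64 was called lower. Against *tup1*, snR83 alone of 63 (1.59%) stood higher in *tup1 cyc8* (1.36 ± 0.19, adjusted p = 0.000285), against 4.95% of all genes, and 0 stood lower. At an unadjusted p under 0.05, 22 were higher and 1 lower, against 23.5% and 18.7% of all genes, and DESeq2 called 1 higher and 0 lower, against 5.42% and 0.367%. Deviations of same-numbered libraries from their strain means correlated at 0.171, 0.343 and 0.200 between these strains. Different-numbered pairs of any strains reached 0.205, and the labels do not give a pairing. With the replicate number as a block snR83 was again the only call in the 12-library fit, and a block in the 6 libraries of these strains alone added snR47 (1.05 ± 0.23). The same count of 2 resulted without wt replicate 3.

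The RNAs that varied most between libraries of 1 strain were snR37 and snR67. snR37, an H/ACA guide for the large subunit, had 88.7, 122 and 246 CPM in wt, 152, 146 and 1208 in *tup1*, 512, 276 and 513 in *cyc8* and 308, 150 and 269 in *tup1 cyc8*. *tup1* replicate 3 was far above all other libraries, and no log2 fold change passed the limits (1.70 ± 0.81 in *tup1*, adjusted p = 0.162, and 1.51 ± 0.40 in *cyc8*, adjusted p = 0.0211). The 7 members with *tup1* replicate 3 more than 2-fold above both other *tup1* libraries were snR33, snR34, snR35, snR36, snR37, snR67 and snR74. Of these 7, 5 are H/ACA RNAs, as are 28 of all 63 members, and a link with class was not tested.

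Longer members tended to have higher levels per kb. All H/ACA members were 161 bases or longer, with a median of 204, whereas 25 of the 32 C/D members were 150 bases or less and the class had a median of 101.5. Across the 63 RNAs, the level per kb in wt rose with length (Spearman's rho = 0.61, n = 63 RNAs of the same libraries, which are not independent replicates). Within the classes rho was 0.42 for the 32 box C/D members and 0.54 for the 28 H/ACA members. The median level per kb was 66.2 CPM in wt for members of 150 bases or less and 312 for longer ones. Class and length cannot be told apart in these medians, since no H/ACA member is in the shorter group. The silica column and library preparation can lose short RNAs, and the part of such loss in these levels was not tested. The short members summed to 375 ± 77.7 CPM in wt and 331 ± 43.6, 544 ± 88.0 and 359 ± 63.5 in *tup1*, *cyc8* and *tup1 cyc8*. Their median log2 fold change was -0.20, 0.76 and 0.25 in *tup1*, *cyc8* and *tup1 cyc8*, and that of longer members 0.30, 0.67 and 0.58. For the 7 box C/D members over 150 bases it was 0.32, 0.70 and 0.50, with 4 positive and 3 negative values in *tup1*. A link of fold change with length or class was not tested.

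Of 63 genes for proteins that make or process these RNAs, such as the snoRNP proteins, their assembly factors, the exosome and the termination factors, few passed both limits. In *tup1* and *cyc8* 0 passed in either direction, where 7.27% and 12.5% of all genes rose and 1.43% and 1.91% fell. The adjusted p alone gave 1 list gene higher and 0 lower in *tup1*, against 10.5% and 3.73% of all genes. In *cyc8* it gave 2 higher (3.17%) and 1 lower (1.59%), against 16.3% and 5.66%. By the adjusted p alone *TAH1*, an assembly factor of C/D snoRNPs, was higher in *tup1* (0.55, adjusted p = 0.00549) and *cyc8* (0.79, adjusted p = 0.00925), *LSM3*, part of the ring that binds U6, was higher in *cyc8* (0.56, adjusted p = 0.00944), and *NAB3*, a termination factor for snoRNA genes, was lower in *cyc8* (-0.59, adjusted p = 0.00591). In *tup1 cyc8* only *RNT1*, the RNase III that trims snoRNA precursors, fell past both limits (-1.03, adjusted p = 0.000452), 1 of 63 where 1.88% of all genes fell. The count was 0 without wt replicate 2 or *tup1 cyc8* replicate 3, 3 without wt replicate 3, and 17 with scaling by library size alone. By the adjusted p alone *TAH1* was the 1 list gene higher in *tup1 cyc8* (1.59%), against 21.0% of all genes, and 15 (23.8%) were lower, against 13.6%. The lower genes included the pseudouridine synthase *CBF5* (-0.64, adjusted p = 0.00808), its partner *NHP2* (-0.85, adjusted p = 0.00443), the C/D core protein *NOP56* (-0.72, adjusted p = 0.00387) and the exosome exonuclease *RRP6* (-0.84, adjusted p = 0.00231). The median of the list was -0.17, -0.21 and -0.30 in the 3 mutants, where the members had medians above 0.

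Of 4 structural RNAs outside the set, only *RPR1* passed both limits against wt. *RPR1*, the RNA of RNase P, rose in *tup1 cyc8* (1.03, adjusted p = 0.00175) and was at 0.68 in *cyc8* (adjusted p = 0.00927). *SCR1*, the RNA of the signal recognition particle, was at 0.79 (adjusted p = 0.0124) in *cyc8* and 0.76 (adjusted p = 0.00808) in *tup1 cyc8*. *NME1*, the RNA of RNase MRP, and *TLC1*, the telomerase RNA, did not pass the test in any mutant against wt.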

How the data were processed

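The authors deposited 3 tables of raw counts per gene, each holding 1 mutant beside the same 3 wt libraries, for 12 libraries of 4 strains in all. According to the submitters' processing notes, reads were trimmed with Trimmomatic 0.36, aligned with STAR 2.5.2b and counted with featureCounts (Subread 1.5.2). The genome build and the strand setting of the counting are not given in the sources used here. A nameless row, holding 0.0647% to 0.340% of counts, was not used.

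Genes were filtered with filterByExpr, scaled by TMM and tested with edgeR 4.0.16 (quasi-likelihood) in R 4.3.3, in 6 libraries for a mutant against wt and in all 12 between mutants, and p-values were adjusted over all genes tested by Benjamini-Hochberg. The scripts were tested on simulated data. Levels are TMM-scaled CPM of the 12-library fit, given as mean ± SD (n = 3), and ± beside a log2 fold change is its SE. Shares are of counts on named genes. Positions, lengths and sequences are from RefSeq R64. Classes are from a list written by hand. The R64 annotation gives no class for snR17a and snR17b, which were taken as box C/D. Coverage is by reads that may be from precursors as well as from mature RNAs. The members, gene lists and tests were chosen with earlier results of these data known. Named were the spliceosomal members, the 6 most abundant, those of precursor cleavage, those past both limits, the most variable, and those in clusters or introns; snR5, snR47, snR49, snR51, snR78 and the RNAs called between mutants were named after their values were seen.

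Alternatives were DESeq2 1.42.0, other scalings, no filter or a stricter filter on low counts, an adjusted p of 0.05, names without a hyphen, 1 fit of all libraries, a replicate block and leaving out each library. Deviations from the strain means correlated with a median of 0.0504 over 18 same-numbered pairs. For *tup1* and *tup1 cyc8* alone all 3 pairs were over 0.1 (0.171, 0.343 and 0.200), where different-numbered pairs of any strains reached 0.205. The labels give only numbers, so a pairing is not established. A blocked fit of these strains alone was chosen after the data were seen.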

Additional observations from a re-analysis of the deposited data

How the results depend on the processing

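Scaling by library size alone left 3 members higher and 1 lower (snR17b) in *cyc8*, 1 higher and 2 lower (snR17b and snR49) in *tup1 cyc8*, 5 higher in *cyc8* against *tup1*, and 2 and 17 proteins of the processing list lower in *cyc8* and *tup1 cyc8*. DESeq2 and an adjusted p of 0.05 each gave 13 members higher in *cyc8*, and the latter 17 in *cyc8* against *tup1*. A fit of all 12 libraries gave 3 higher in *tup1 cyc8*. Of protein-coding counts the members were 3.74%, 4.14%, 6.20% and 5.74%, and without snR83 the shares of all counts were 2.72%, 2.90%, 3.53% and 3.33% in wt, *tup1*, *cyc8* and *tup1 cyc8*. The cause of these shifts was not tested.

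Leaving out each library in turn gave 0 to 2 members lower in *tup1*, 3 to 18 higher in *cyc8*, 3 to 7 higher in *tup1 cyc8*, 3 to 15 higher and 0 to 1 lower (snR5, without *tup1* replicate 1) in *cyc8* against *tup1*, 0 to 1 lower in *tup1 cyc8* against *cyc8*, and 1 to 2 higher in *tup1 cyc8* against *tup1*. For the processing list it gave 0 to 3 lower in *tup1 cyc8*. With the replicate number as a block, 7 members were higher in *cyc8* (snR34 in place of snR3) and 6 in *tup1 cyc8* (snR32 and snR74 gained, snR4 lost). With that block 12 were higher in *cyc8* against *tup1* (snR74 gained) and 1 in *tup1 cyc8* against *tup1*. The latter count was 2 when the 6 libraries of these 2 strains were fitted alone, a fit chosen after seeing the data.

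Signs turned in 28 comparisons of a member named by the rule, none of them called. With scaling to library size alone the log2 fold change in *tup1* was -0.022 for snR14, -0.049 for snR30, -0.016 for snR85 and -0.00296 for snR191. In *cyc8* it was -0.28 for snR128, -0.30 for snR10, -0.21 for snR39 and -0.039 for snR191. In *tup1 cyc8* it was -0.33 for snR14, -0.022 for snR128, -0.43 for snR10, -0.016 for snR41, -0.13 for snR70, -0.33 for snR57, -0.22 for snR73, -0.32 for snR18, -0.42 for snR44 and -0.19 for snR191. When each library was left out, values in *tup1* ran from -0.26 to 0.35 for snR14, -0.11 to 0.091 for snR63, -0.27 to 1.32 for snR67, -0.013 to 0.24 for snR85, -0.024 to 2.25 for snR37, -0.16 to 0.81 for snR190, -0.46 to 0.092 for snR73, -0.15 to 0.40 for snR76, -0.0058 to 0.52 for snR18, -0.23 to 0.18 for snR39 and -0.047 to 0.31 for snR191. In *cyc8* they ran from -0.070 to 0.16 for snR128, -0.18 to 0.30 for snR10 and -0.18 to 0.26 for snR39. In *tup1 cyc8* they ran from -0.16 to 0.18 for snR10, -0.29 to 0.10 for snR190, -0.030 to 0.35 for snR57, -0.11 to 0.54 for snR73, -0.56 to 0.24 for snR77 and -0.039 to 0.16 for snR44.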
